A study of Homo sapiens with 6 samples.

Results

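The 43 genes described here encode the machinery of homologous recombination (HR) and of the Fanconi anemia (FA) pathway. They were chosen by name: each is a row of the deposited gene table whose Ensembl identifier carries 1 of 43 listed symbols, out of 60668 rows, of which 28454 had at least 1 read. All 43 symbols were found. The RNA came from MiaPaCa-2, an established human pancreatic ductal adenocarcinoma (PDAC) cell line, cultured for 48 h in low glucose (2.5 mM, 3 libraries) or in control medium (25 mM, 3 libraries). All 6 libraries are MiaPaCa-2 without an engineered allele or drug named in their labels, the design text calls them independent biological replicates, and a single line in culture stands for the disease.

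HR repairs a broken chromosome by copying the missing information from the sister chromatid, so it works mainly in S and G2 phase, when a sister is present. The broken ends are first cut back to single strands by nucleases, BRCA1, PALB2 and BRCA2 prepare those strands to pair with the matching sequence, and helicases and nucleases take the joined molecules apart. The FA proteins recognise crosslinks between the strands, attach ubiquitin to the FANCD2-FANCI pair and hand the lesion to nucleases and HR. Pancreatic cancers with inherited defects in BRCA1, BRCA2, PALB2 or ATM are known for their link to this pathway.

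Values are normalised read counts, which are gene counts that the authors divided by 1 size factor per library. The control libraries held 9741183 (shallowest), 10126218 (middle) and 10190154 reads on genes (deepest control). The low-glucose libraries held 10841656 (replicate 1), 10595408 (replicate 2) and 13733477 (the third). Values below are given in these orders. The labels do not tie the columns of the third low-glucose library or of the 3 controls to samples, and their groups were inferred from the column names. A gene was called when its limma adjusted p was under 0.05 (Benjamini-Hochberg over the 21101 genes with a mean value of at least 1). Fold changes are low glucose over control on the scale of log2(value + 1), which understates changes of low genes, and are followed by a standard error (SE). The shallowest value of any member rested on 17 reads. Of the carcinoma line's markers, KRT8 (21362 to 42135 reads per library), KRT18 (13896 to 23074) and KRT19 (2001 to 3598) were present at high counts and fell (-1.01, -0.74 and -0.83), and the filament gene VIM rose (0.42), whereas KRT7 had 2 to 12 reads and EPCAM and CDH1, epithelial adhesion genes, had 0 to 3. Of the 8 carcinoma markers, which also include MUC1, 6 were tested. Among those 3 fell, 1 rose and 2 were not called, with fold changes from -1.01 to 0.85. Of the leukocyte markers, PTPRC and CD3E had 0 reads in every library, CD14 had 11 to 45 and ITGAM 4 to 12. The summed per-length level of these 4 leukocyte markers was 3.41 to 6.67 in control against 1.55 to 3.12 in low glucose, and 1 of the 2 tested (CD14) fell. Of the fibroblast and endothelial markers, DCN had 0 reads in every library, LUM at most 1, COL1A2 had 1940 to 2577 and CDH5 fell from 145 to 165 reads in control to 10 to 16. That list of 7 summed to 98.5 to 114 in control against 66.9 to 68.8 in low glucose, with 2 of 4 tested lower (CDH5, COL1A2), and its part in the results below was not tested.

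Low glucose was accompanied by lower transcript levels across most of the HR and FA genes. Of the 43 genes, 27 fell and 2 rose, MUS81 and RBBP8, and 14 were not called. Among all genes tested, 30.9% were called, 16.2% as lower and 14.7% as higher, so the share of members called lower was 62.8%, against 16.2% of all genes. Of the tested protein-coding genes, 38.7% were called and 22.1% were called lower. Values of the 2 conditions did not overlap for 29 members that were lower (21.8% of all genes tested) and 4 that were higher (22.1%), and overlapped for 10. The median log2 fold change was -0.44 over the members and 0.049 over all genes tested (-0.0074 over the 13710 tested protein-coding genes). Falls of at least 0.5 on the log2 scale were found for 20 members. The deepest were those of BLM, BRCA2, ATRIP and EXO1, each to between 50.6% and 51.7% of its control mean. Across all genes the calls divided into 3111 higher and 3417 lower, and with scaling by library size in place of the deposited factors into 3935 and 2647. With that scaling 24 members were lower and 3 higher. Of the 29 calls, 19 (18 lower and MUS81) held under each of 16 alternatives (other scalings, filters, tools and left-out libraries, a fold criterion not counted), and 10 were lost under at least 1 of them.

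**Figure D1:**
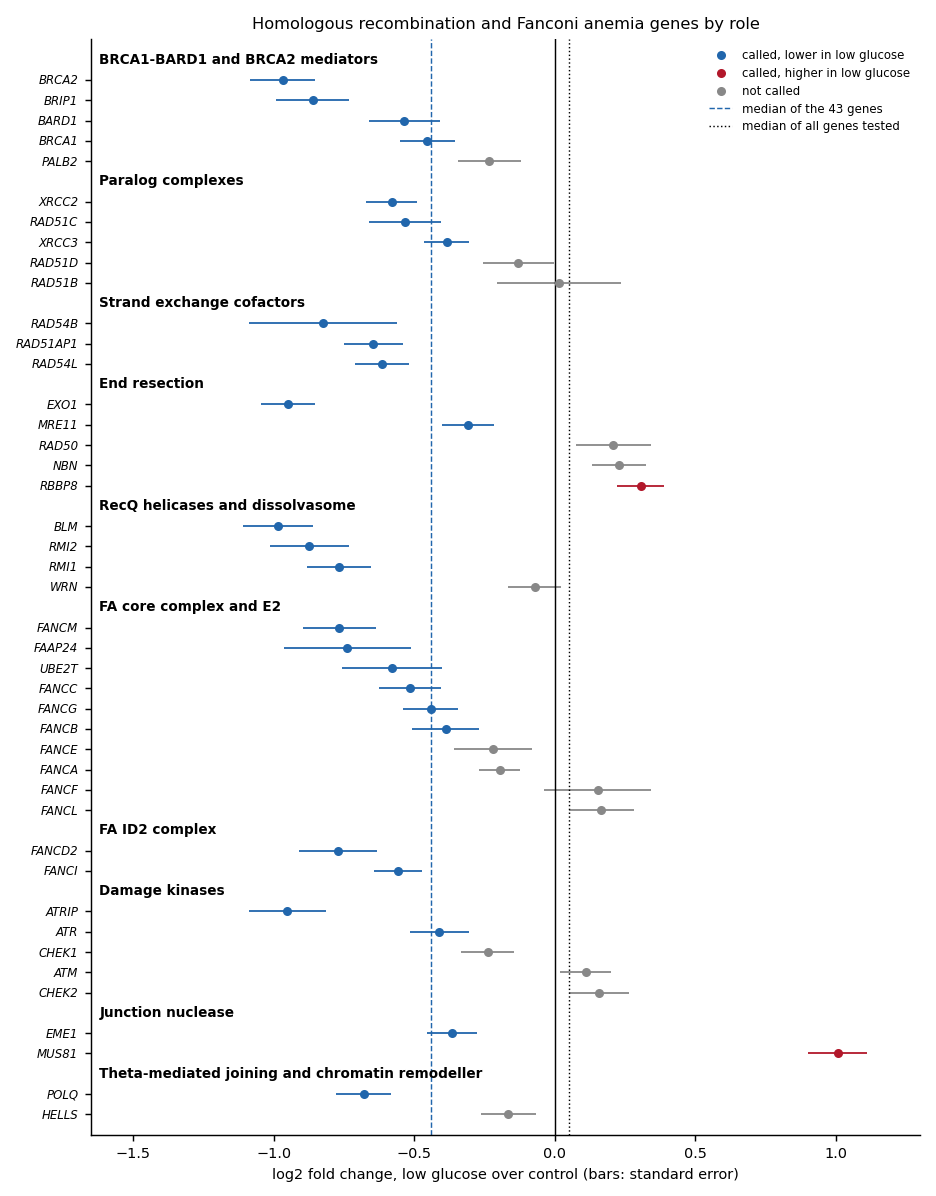
Log2 fold changes (low glucose over control, x axis) of the 43 HR and FA genes with their standard errors, grouped by role, 3 libraries per condition. Blue points are called lower, red points called higher and grey points not called. The dashed line is the median of the 43 genes (-0.44), the dotted line that of all genes tested (0.049), and MUS81 at 1.01 stands alone on the right.

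In bulk RNA, fewer cells in the phases that use these genes and less RNA of them per cell cannot be told apart. S-phase markers, some of which are also in the replication list below, among them UHRF1 (-1.46) and CDC25A (-1.31), fell in 11 of 12 cases with a median of -1.01, and their summed per-length level was 1684 to 1768 in the control against 850.1 to 928 in the low-glucose libraries. G2/M markers, among them MKI67 (-1.58) and AURKA (-1.21), also fell in 11 of 12 cases, with a median of -0.77. The part of these shifts in the members' values was not tested.

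Promoters were read from RefSeq (GRCh38.p14), as 250 bases before and 50 after the start of transcription, for 38 of the members. Searched on both strands were 2 forms of the site bound by E2F factors (TTTGGCGC and TTTCGCGC), the CCAAT box, and TTTGAA, the core of the element through which cell-cycle genes are held down. The CCAAT box was in 19 member promoters (50%, against 34.6% of 35116 promoters of that length), TTTGAA in 6 (15.8% against 15.2%), TTTCGCGC in 2 (EXO1 and FANCC, 5.26% against 0.515%) and TTTGGCGC in 1 (HELLS, 2.63% against 0.652%). Each member was counted with 1 promoter, the one nearest its annotated start, whereas the 35116 were not reduced to 1 per gene. Of the 19 promoters with CCAAT 11 belonged to genes that fell, and of the 19 without it 13 did. Shown here are BRCA1 and FANCB, because a neighbour that shares their start region moved the opposite way, EXO1, the called fall with the smallest adjusted p, and MUS81, the largest rise. Capitals mark matches to the 4 motifs. They lie on chr17:43125315-43125614 (minus strand), chrX:14873020-14873319 (minus), chr1:241847954-241848253 (plus) and chr11:65860183-65860482 (plus).
BRCA1: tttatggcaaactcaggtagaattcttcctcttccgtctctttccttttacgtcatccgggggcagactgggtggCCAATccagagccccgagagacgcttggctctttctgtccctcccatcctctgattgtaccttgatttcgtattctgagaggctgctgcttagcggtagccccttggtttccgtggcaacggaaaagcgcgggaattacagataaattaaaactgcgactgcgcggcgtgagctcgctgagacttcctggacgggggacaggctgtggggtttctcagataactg
FANCB: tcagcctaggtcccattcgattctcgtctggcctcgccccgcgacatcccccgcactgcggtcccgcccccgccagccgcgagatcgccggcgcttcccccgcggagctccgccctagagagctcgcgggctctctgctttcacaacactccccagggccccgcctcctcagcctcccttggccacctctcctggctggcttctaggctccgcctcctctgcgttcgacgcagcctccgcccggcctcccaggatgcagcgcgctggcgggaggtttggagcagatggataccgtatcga
EXO1: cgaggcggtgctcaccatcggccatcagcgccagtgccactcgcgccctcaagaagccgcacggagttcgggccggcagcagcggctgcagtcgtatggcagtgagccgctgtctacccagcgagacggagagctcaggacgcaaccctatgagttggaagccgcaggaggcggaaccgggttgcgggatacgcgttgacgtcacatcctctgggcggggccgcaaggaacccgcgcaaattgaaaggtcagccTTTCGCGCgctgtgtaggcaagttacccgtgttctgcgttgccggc
MUS81: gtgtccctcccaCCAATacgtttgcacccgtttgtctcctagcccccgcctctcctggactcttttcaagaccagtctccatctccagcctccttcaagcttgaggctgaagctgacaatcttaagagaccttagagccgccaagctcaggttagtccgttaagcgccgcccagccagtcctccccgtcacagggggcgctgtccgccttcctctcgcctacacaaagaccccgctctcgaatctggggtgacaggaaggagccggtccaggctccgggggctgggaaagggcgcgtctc
The CCAAT of BRCA1 begins 175 bases and that of MUS81 238 bases before the start, the E2F-type match of EXO1 lies 4 bases after it, and the FANCB window holds none of these letters. These matches describe the sequence and were not tied to binding.

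The BRCA1 group comprises the ubiquitin ligase pair BRCA1-BARD1, the BRCA1-bound helicase BRIP1 (FANCJ), the bridge PALB2 (FANCN) and BRCA2 (FANCD1), which acts on single-stranded DNA after resection. Of these 5 genes 4 fell. BRCA2 (ENSG00000139618.15, chromosome 13, 32315086 to 32400268 on hg38) had values of 333, 354 and 307 in control and 185, 176 and 148 in low glucose. Every low-glucose value was below every control value, and the fold change was -0.97 (SE 0.12, adjusted p 2.48e-05). BRCA1 (ENSG00000012048.22, chromosome 17, 43044295 to 43170245) was at 660.3, 801 and 623 in control and 509.8, 505 and 497 in low glucose. Its control values spread widely and its low-glucose values lay close together, without overlap (-0.45, SE 0.098, adjusted p 0.00271). Without a mean-variance trend in the model the adjusted p of BRCA1 was 0.055. BRIP1 went from 239 to 274 in control to 120.2 to 157 in low glucose, and BARD1 from 179 to 225 to 138 to 148. BRIP1 (-0.86, SE 0.13) fell more than its binding partner BRCA1 by point estimate, a difference that was not tested, and BARD1 fell by 0.54 (SE 0.13). PALB2 was not called (-0.23, SE 0.11, adjusted p 0.132). Its values of 237, 275 and 227 in control and 200.1, 209 and 217 in low glucose did not overlap. Whether its fold change differed from those of the other 4 genes was not tested.

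XRCC2, XRCC3, RAD51B, RAD51C and RAD51D are paralogs that work in shared complexes during strand pairing, and 3 of the 5 fell. XRCC2 was at 666, 654 and 579.9 in control and 404, 449 and 415 in low glucose (-0.58, SE 0.091, adjusted p 0.000229), with a wide gap between the conditions. RAD51C (FANCO) was at 420.4, 293 and 391 in control and 259.7, 236 and 258 in low glucose (-0.53, SE 0.13, adjusted p 0.00525). The middle control library gave the lowest control value of RAD51C, still above all low-glucose values, and without the mean-variance trend its adjusted p was 0.0732. XRCC3 fell from 777 to 840.4 in control to 595 to 631 (-0.38, SE 0.080). Exons of KLC1 on the opposite strand cover 5756 bases of the XRCC3 exons (76.7%), and KLC1 itself was not called (-0.11). RAD51D, with 169 to 203 in control against 151 to 183 in low glucose, overlapped between the conditions and was not called (-0.13, SE 0.13). RAD51B was the closest to 0 of the 43 genes (0.015, SE 0.22), with 38.5 to 56.8 in control against 40.5 to 53.8 in low glucose.

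The 3 cofactors of strand exchange were called lower. RAD54L, a motor protein that remodels the joint, was at 447, 432 and 505 in control and 302, 285 and 314 in low glucose (-0.61, SE 0.097, adjusted p 0.000243). RAD51AP1, which stimulates strand exchange, was at 444, 393 and 459 in control and 247, 293 and 287 in low glucose (-0.65, SE 0.10, adjusted p 0.000297). Neither gene overlapped between conditions. RAD54B, a relative of RAD54L, was the lowest member per length and was at 33.6, 30.1 and 33.2 in control and 16.4, 19.8 and 17.4 in low glucose (-0.82, SE 0.26, adjusted p 0.0275). Its call was lost when any library but the middle control was left out (adjusted p 0.0567 without the deepest control, 0.0703 without the shallowest control, 0.089 without replicate 1, 0.0536 without replicate 2 and 0.0737 without the third low-glucose library), with DESeq2 on the recovered reads (0.0858) and with no filter on low values (0.057). RAD54B also shares 3511 exon bases on its strand with FSBP, which was not called (-0.25).

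**Figure D2:**
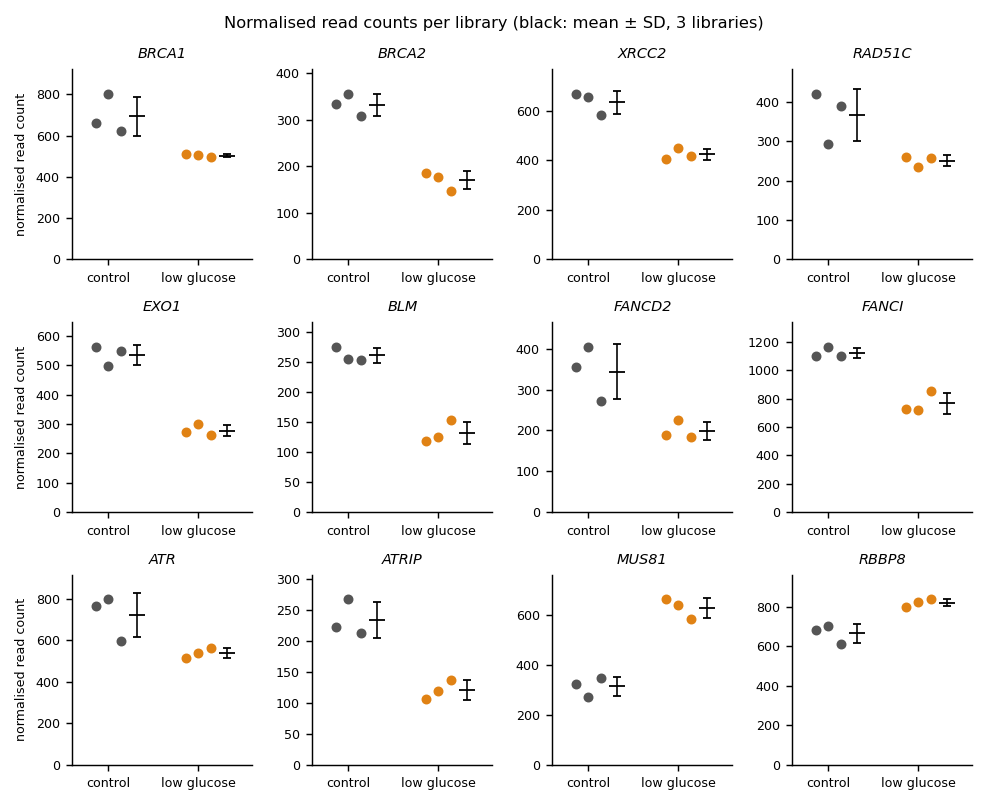
Normalised read counts (y axis, from 0) of 12 HR and FA genes in each of 3 control (grey) and 3 low-glucose libraries (orange), with mean ± SD in black. In 10 panels the low-glucose points lie below the control points without overlap, and in those of MUS81 and RBBP8 above them.

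In end resection 2 genes fell, 1 rose and 2 were not called. EXO1 (ENSG00000174371.17, chromosome 1, 241847967 to 241895148), the exonuclease of long-range resection, was at 563, 497 and 548 in control and 271, 298 and 261 in low glucose. It fell to 51.7% of the control mean, with the smallest adjusted p of the falls (-0.95, SE 0.096, adjusted p 5.56e-06). RBBP8 (CtIP; ENSG00000101773.19, chromosome 18, 22798261 to 23026488), which starts resection together with the MRE11-RAD50-NBN complex, rose. It was at 682, 706 and 609.9 in control and 800.3, 827 and 838 in low glucose, without overlap (0.31, SE 0.084, adjusted p 0.0122). The rise of RBBP8 was lost without replicate 2 (adjusted p 0.0598) and without the third low-glucose library (adjusted p 0.0629), and without the mean-variance trend (adjusted p 0.079). MRE11, the nuclease of the complex, fell from 403 to 465 in control to 343 to 358 in low glucose (-0.31, SE 0.092, adjusted p 0.0193). That call was lost without the shallowest control (adjusted p 0.060), without replicate 1 (0.0797), without replicate 2 (0.0753) and without the third low-glucose library (0.0547), as well as with scaling by library size (0.0663) and without the mean-variance trend (0.0719). The 2 other subunits were not called: RAD50, which bridges the ends, gave 0.21 (SE 0.13) with overlapping values, and NBN, the signalling subunit, gave 0.23 (SE 0.095, adjusted p 0.0829) with values of 327 to 352 in control against 368 to 427 in low glucose that did not overlap. RAD50 was called higher without the middle control (0.34, adjusted p 0.0341), and NBN with scaling by library size (0.31, adjusted p 0.0237) and with edgeR (0.26, adjusted p 0.0404). RAD50 shares 8124 of its exon bases (76.9%) on its own strand with ENSG00000283782, a gene listed at 0 reads in every library, and how reads over shared exons were counted is not given in the sources used here, which bears on the level of RAD50 and its ratio to MRE11.

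Of the RecQ helicases, BLM fell and WRN was not called. BLM (ENSG00000197299.12, chromosome 15, 90717346 to 90816166) unwinds recombination intermediates. With RMI1, RMI2 and TOP3A, which is not among the 43 genes, it forms the dissolvasome, which separates double Holliday junctions without crossing over. BLM was at 275, 254 and 252 in control and 118, 124 and 152 in low glucose, the deepest fall of the 43 genes (-0.99, SE 0.13, adjusted p 3.96e-05). RMI1 was at 321, 302 and 276 in control and 165, 167 and 195 in low glucose (-0.77, SE 0.11, adjusted p 0.000146). RMI2 was at 188, 157 and 212 in control and 97.2, 108 and 96.2 in low glucose (-0.87, SE 0.14, adjusted p 0.000302). BLM, RMI1 and RMI2 thus lay at 50.6% to 58.7% of their control means, with no overlap between conditions for any of the 3 genes. TOP3A fell less by point estimate, to 70.3% of its control mean (-0.49, SE 0.11, adjusted p 0.00317). WRN, with 471 to 551 in control against 445 to 508 in low glucose, overlapped (-0.072, SE 0.094).

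The FA core complex is a ubiquitin ligase, in which FANCL carries the catalytic RING domain, UBE2T (FANCT) is the partner E2 enzyme, and FANCM with FAAP24 anchors the complex to DNA. Of its 10 genes measured here 6 fell and 4 were not called. FANCM was at 185, 172 and 172 in control and 105, 93.8 and 111 in low glucose (-0.77, SE 0.13, adjusted p 0.000433), the deepest fall of the complex. FAAP24 was at 42.6, 49.0 and 56.7 in control and 26.0, 29.6 and 31.8 in low glucose (-0.74, SE 0.23, adjusted p 0.0222). The call of FAAP24 was lost without the deepest control (adjusted p 0.0683), without replicate 1 (0.0885), without replicate 2 (0.0622) and with DESeq2 on the recovered reads (0.0585). Of the subunits that hold the complex together, FANCC fell from 273 to 333 in control to 199 to 212 (-0.52, SE 0.11), FANCG (XRCC9) from 321 to 348 to 243 to 258 (-0.44, SE 0.097) and FANCB, which binds FANCL, from 189 to 216 to 147 to 174 (-0.39, SE 0.12, adjusted p 0.0239). FANCB lost its call without the shallowest control (adjusted p 0.0871), without replicate 1 (0.0927) and without the third low-glucose library (0.105), with scaling by library size (0.071), without the mean-variance trend (0.0655) and with DESeq2 on the recovered reads (0.0534).

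UBE2T was at 198, 128 and 168 in control and 112, 129 and 87.9 in low glucose, and it was the only member called in spite of overlapping values (-0.58, SE 0.18, adjusted p 0.0228). The overlap came from the middle control. Its call was lost without the shallowest control (adjusted p 0.131), without replicate 1 (0.0768) and without the third low-glucose library (0.141), with scaling by library size (0.0517) and without the mean-variance trend (0.127). FANCL, the catalytic subunit, was not called, with 242 to 328 in control against 300.1 to 328 in low glucose (0.17, SE 0.12). FANCF, an adaptor subunit, was not called and low (43.9 to 56.8 in control against 55.3 to 58.7 in low glucose; 0.15, SE 0.19), and neither was FANCE, which contacts FANCD2 (-0.22, SE 0.14). FANCA, the member with the highest normalised read counts, was at 1289, 1289.6 and 1313 in control and 1097, 1143 and 1159 in low glucose. Its values did not overlap, and its adjusted p was 0.0544 (-0.20, SE 0.073), or 0.0225 without the middle control, 0.0428 with a minimum mean value of 5 and 0.0398 with a length trend removed.

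FANCD2 and FANCI, the pair that receives ubiquitin and clamps onto DNA, both fell. FANCD2 was at 354, 405 and 273 in control and 189, 224 and 185 in low glucose (-0.77, SE 0.14, adjusted p 0.000714). FANCI was at 1103, 1166 and 1103 in control and 726, 721 and 851 in low glucose (-0.56, SE 0.085, adjusted p 0.000197). Both pairs of conditions were separated, though the 3 controls of FANCD2 varied more than those of FANCI. FANCI shares 458 exon bases with POLG on the opposite strand, and POLG fell too (-0.41). FANCD2OS, on the opposite strand of FANCD2 with 359 shared bases, fell by 0.57 (adjusted p 0.0489).

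Among the genes that signal damage, ATR and its partner ATRIP fell, and the kinases CHEK1, ATM and CHEK2 were not called. ATRIP, which brings ATR to single-stranded DNA, was at 223, 268 and 213 in control and 106, 119.5 and 137 in low glucose (-0.95, SE 0.14, adjusted p 0.000116). It shares 1448 exon bases (26.7%) on its strand with TREX1, listed at 0 reads in every library. As for RAD50, how reads over the shared exons were counted is not given, which bears on the level of ATRIP and its ratio to ATR. ATR, the kinase of stalled replication forks, was at 767, 798 and 599 in control and 516, 538 and 561 in low glucose (-0.41, SE 0.11, adjusted p 0.00837). The call of ATR was lost without the shallowest control (adjusted p 0.0576), without replicate 1 (0.0605) and without the mean-variance trend (0.0945). CHEK1, the kinase that ATR activates, was at 387 to 408 in control against 312 to 363 in low glucose, which did not overlap (-0.24, SE 0.095, adjusted p 0.0705), and it was called without the middle control (adjusted p 0.042) and with a length trend removed (0.0455). ATM, the kinase of double-strand breaks, gave 0.11 (SE 0.090) and its target CHEK2 gave 0.16 (SE 0.11). CHEK2 was at 452, 344 and 441 in control and 462, 454 and 454 in low glucose, with the lowest value again in the middle control.

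MUS81 was the member that rose most. It is the nuclease that cuts branched recombination and replication intermediates and works as a dimer with EME1. MUS81 (ENSG00000172732.12, chromosome 11, 65857126 to 65867653) was at 325, 271 and 346 in control and 662, 640.1 and 585 in low glucose. The lowest low-glucose value was well above the highest control value, and the mean was 200.4% of that in control (1.01, SE 0.10, adjusted p 6.82e-06). Over the 16 alternatives its fold change ranged from 0.90 to 1.09, and each called it. EME1 went the other way, from 529, 554 and 534 in control to 392, 412 and 452 in low glucose (-0.37, SE 0.089, adjusted p 0.00608, or 0.0501 without the mean-variance trend). Genes on the opposite strand touch both: MUS81 shares 759 exon bases (13.9%) with CFL1, which fell (-0.39, SE 0.11), and 11 with EFEMP2, which was not called (1.48, SE 0.59), while EME1 shares 541 with LRRC59, which fell (-0.48). POLQ, the polymerase of theta-mediated end joining, fell from 511, 559.5 and 475 to 300.1, 342 and 321 (-0.68, SE 0.097, adjusted p 0.00011). HELLS, a chromatin remodeller that aids resection, was not called (-0.17, SE 0.097), with 430.2 to 463 in control against 358 to 432 in low glucose.

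Because the products of several members act in fixed pairs, ratios of their per-length levels were compared for 11 pairs. The per-length level is the reads per base of the Ensembl canonical transcript, scaled so that all genes of a library have the same sum. The ratio of MUS81 to EME1 was 0.606, 0.482 and 0.638 in control and 1.67, 1.53 and 1.27 in low glucose, so that MUS81 was the lower partner in each control library and the higher in each low-glucose library (log2 difference 1.38, SD 0.22 in control and 0.20 in low glucose, n = 3 each). The ratio of BRCA2 to PALB2 was 0.472, 0.432 and 0.454 in control and 0.309, 0.282 and 0.229 in low glucose (-0.74), and that of ATR to ATRIP was 1.93, 1.67 and 1.58 in control and 2.73, 2.53 and 2.30 in low glucose (0.55). The log2 differences were -0.52 for MRE11 to RAD50, -0.54 for MRE11 to NBN, -0.22 for BLM to RMI1 and 0.45 for RAD51D to XRCC2. In these 7 pairs the conditions did not overlap. For the normalised read counts of single genes that share was 43.9%, and the share over ratios of other gene pairs was not computed. The ratios of BRCA1 to BARD1 (0.084), RAD51C to XRCC3 (-0.15), RMI1 to RMI2 (0.11) and FANCD2 to FANCI (-0.22) overlapped. With 3 libraries against 3 the two-sided exact permutation test cannot go below p = 0.10, which all 7 separated pairs reached (0.157 after adjustment over the 11 pairs).

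**Figure D3:**
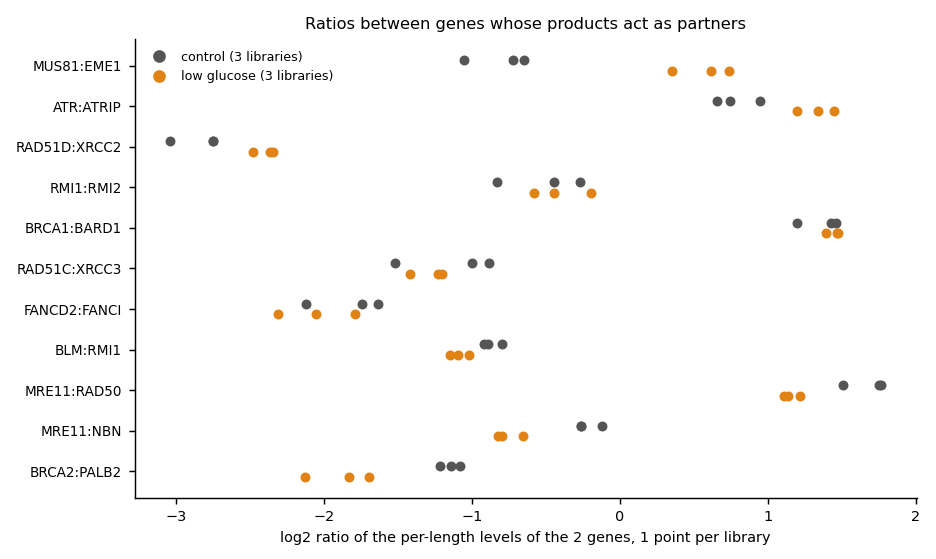
Log2 ratio of the per-length levels of both partners (x axis) in each library for 11 pairs of HR and FA genes, with grey points for control and orange points for low glucose (3 each). For MUS81:EME1, at the top, control points lie below 0 and low-glucose points above 0, and BRCA2:PALB2, at the bottom, has the most negative difference (-0.74).

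Per length, XRCC3 was the highest member in control (56.6 ± 3.79 transcripts per 1e6, SD, n = 3), followed by FANCA (43.2 ± 0.836), FANCI (43.2 ± 2.43), EME1 (42.0 ± 1.97) and CHEK2 (40.6 ± 5.30), and the last 4 of these lay within each other's spread. At the bottom were RAD54B (1.91 ± 0.0960), FANCF (2.87 ± 0.465), RAD51D (3.36 ± 0.368) and RAD50 (3.64 ± 0.711, with the shared exons given above). XRCC3 shares 76.7% of its exon bases with KLC1 on the opposite strand, and RAD54B 66.0% with FSBP on its own strand. How reads over these exons were counted is not given in the sources used here, which bears on both ranks. The median member was at 13.4. All 43 together summed to 849.7, 811 and 778 in control and 636, 657 and 669 in low glucose, or 80.5% of the control mean. Across members the fold change had a Spearman correlation of 0.15 with the control level and of -0.099 with transcript length (n = 43 genes of the same libraries, which are not independent). The 12 annotated pseudogene copies named after 6 members had 0 reads in all but 2 cases, and at most 11 (BRCA1P1), beside at least 511 reads of BRCA1 in any library.

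Many repair genes start back to back with another gene. A start on the opposite strand, pointing away and within 1000 bases, was annotated (Gencode v44) for 19 of the 43 members (44.2%), against 23.5% of the 13710 tested protein-coding genes. Of the 18 such neighbours tested, 2 rose, 3 fell and 13 were not called, where 14.7% of all genes tested rose and 16.2% fell. The neighbour of BRCA1 is NBR2, a long non-coding RNA known as a partner of the energy sensor AMPK, whose start lies 187 bases from that of BRCA1. NBR2 was at 67.3, 58.0 and 78.1 in control and 224, 215 and 232 in low glucose (1.72, SE 0.14, adjusted p 9.91e-07), so in every library of low glucose it was high while BRCA1 was low. ENSG00000267002, a non-coding RNA that shares 120 exon bases with BRCA1 on the BRCA1 strand, was at 91.9, 92.5 and 108 in control and 275, 236 and 242 in low glucose (1.36, SE 0.13). FANCB and MOSPD2, a protein of contact sites between membranes, start 352 bases apart. MOSPD2 was at 179, 186 and 238 in control and 430.0, 426 and 392 in low glucose (1.06, SE 0.12, adjusted p 1.28e-05), again opposite to its neighbour.

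In 2 pairs both genes fell: RMI1 with HNRNPK, an RNA-binding protein (-0.61, SE 0.079), and RAD51AP1 with C12orf4 (-0.50, SE 0.11). DCTN5, a dynactin subunit, fell beside PALB2 (-0.32, SE 0.10), which was not called. Well-expressed neighbours that were not called beside a member that fell included CEP89 at FAAP24 (-0.021, SE 0.083), ZFYVE21 at XRCC3 (-0.25, SE 0.11) and MRPL27 at EME1 (0.12, SE 0.15). NPAT, the histone-gene activator that starts 429 bases from ATM, gave -0.34 (SE 0.13, adjusted p 0.0648), and ATM 0.11. The neighbour of BRCA2, ZAR1L, had at most 6 reads in any library.

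**Figure D4:**
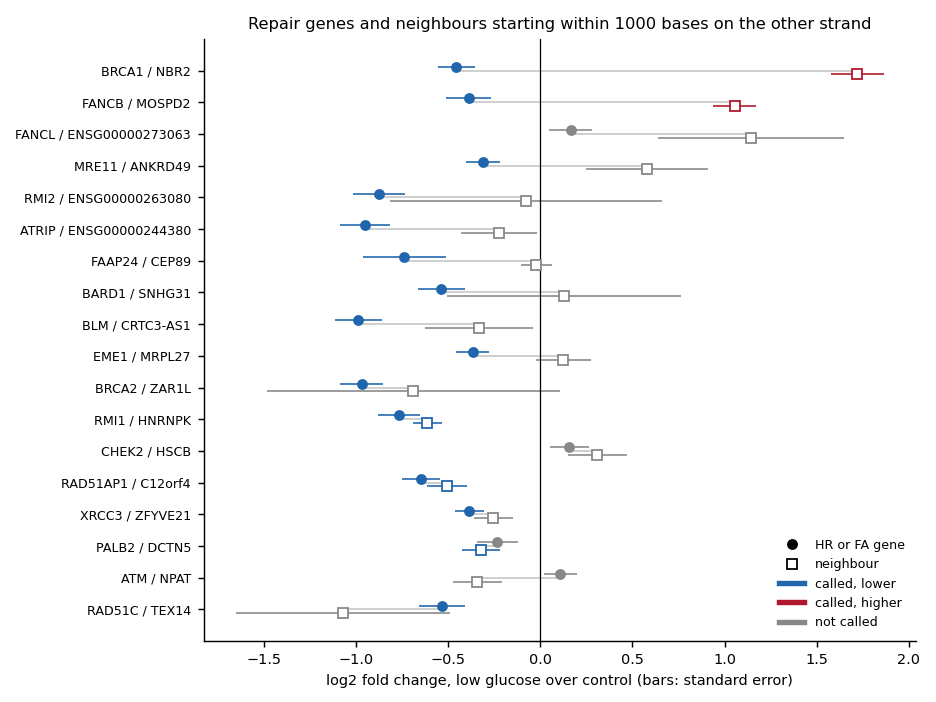
Log2 fold changes (x axis, with standard errors) of members (circles) and of the gene starting within 1000 bases on the other strand (open squares), 18 pairs ordered by their difference. NBR2 and MOSPD2, at the top, rose (1.72 and 1.06) beside BRCA1 and FANCB, which fell, and HNRNPK and C12orf4 fell beside RMI1 and RAD51AP1.

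The libraries were strand-specific, and the strand setting of the gene counting is not given in the sources used here. Exons of 23 members overlap those of a gene on the opposite strand. Of the other 20 members, 16 fell and 1 rose, with a median of -0.61, against 27 falls and 2 rises among all 43 (median -0.44). Overlap was counted whatever the level of the other gene, as for RPL21P4 at BRCA1, which had at most 1 read in any library. The split therefore does not single out members with antisense reads. In 2 of the 3 controls deviations went with transcript length: in the middle control a gene's deviation from the other controls had a Spearman correlation of 0.60 with length over the 43 members (0.44 over the 11808 genes whose mean was at least 50), and in the deepest control -0.56 (-0.49), whereas in the shallowest control it was -0.21 (0.0013) and in the low-glucose libraries it lay between -0.034 and 0.021 for the members. BRCA1 (801), ATR (798) and FANCD2 (405), with transcripts of 5096 bases or more, had their highest value in the middle control, and RAD51C (293), UBE2T (128), FANCL (242) and CHEK2 (344), with transcripts of 2562 bases or fewer, their lowest. With a length trend removed from each library, 29 members were lower and 2 higher. The control SD exceeded that of low glucose for 31 of the 43 members, and the share over all genes was not computed. Over the 11808 genes the SD of a library's deviation on the log2 scale was 0.18, 0.30 and 0.27 in control. In low glucose it was 0.15, 0.15 and 0.16, so a wider control spread was not particular to the members.

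Other genes of HR and the FA pathway, 50 that are not among the 43, were read beside them. Of the 48 tested, 22 fell, 4 rose and 22 were not called, with a median of -0.28. The deepest falls were those of RTEL1, a helicase that dismantles recombination loops (-0.78, SE 0.22), and FIGNL1, an ATPase of the recombination machinery (-0.77, SE 0.10). The largest rises were those of SFR1, a recombination cofactor (0.37, SE 0.11), and BABAM2, a subunit of the BRCA1-A complex (0.35, SE 0.12). SLX1A and SLX1B, near-identical copies, did not reach the mean value of 1 and were not tested.

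Other repair pathways held both falls and values near 0. In non-homologous end joining 8 of 18 fell and 1 rose (median -0.34), among them PRKDC, the catalytic kinase of that pathway (-0.72), SHLD3 of the shieldin complex (-0.74) and the polymerase POLL (0.35). In mismatch repair 2 of 6 fell and 1 rose (median -0.022): MSH6 (-0.76) and MSH3 (-0.33), which take part in recognising mismatches, fell, and PMS1 rose (0.57). In base excision and single-strand break repair 9 of 21 fell and 1 rose (median -0.094), with FEN1 (-1.07) and LIG1 (-0.94), which also process Okazaki fragments, at the bottom and the glycosylase NEIL1 (0.76) at the top. In nucleotide excision repair 4 of 17 fell and 1 rose (median -0.095), with GTF2H2 (-0.51), DDB1 (-0.39) and GTF2H3 (0.32) named. DNA replication genes had a lower median than the HR and FA genes: 30 of 36 fell, 6 were not called, and the median was -0.76, with ORC1 of the origin complex (-1.48) and MCM10 (-1.37) lowest. Among the 43 members 10 had a fold change below that median. These lists differ in size and expression, and no list was tested against another.

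**Figure D5:**
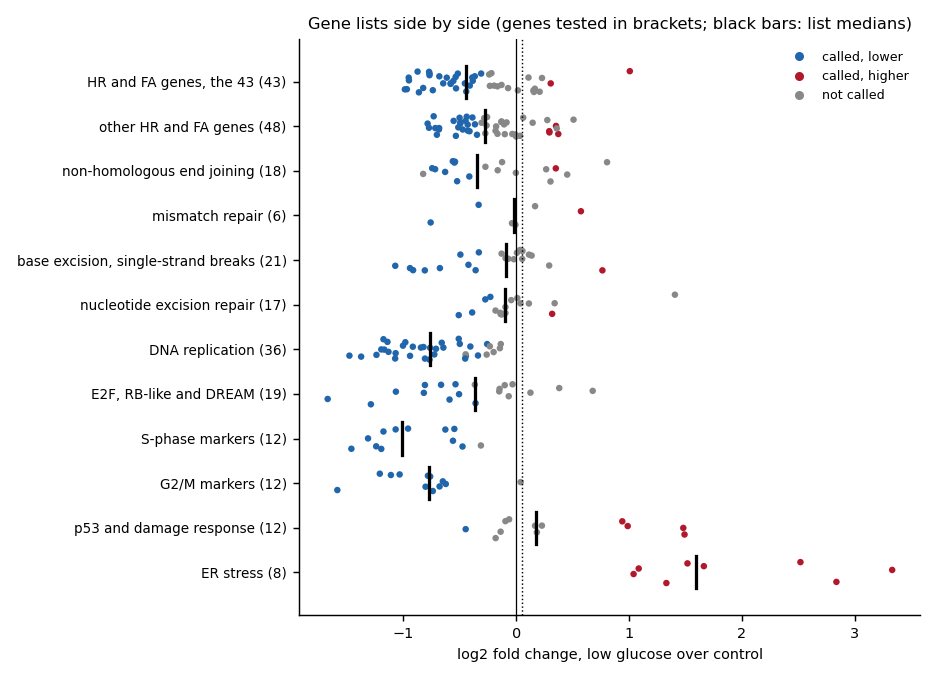
Log2 fold changes (x axis) of the genes tested in 12 lists, 1 point per gene, blue for called lower, red for called higher and grey for not called. Black bars are list medians and the dotted line is the median of all genes tested (0.049). The HR and FA genes (-0.44) lie between DNA replication (-0.76) and nucleotide excision repair (-0.095).

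Regulators of S-phase promoters were also read. Of 19 genes for E2F factors, RB-like proteins and the DREAM complex, which represses cell-cycle genes, 10 fell and 9 were not called (median -0.37). E2F1, an activator, was at 930.5, 753 and 1057 in control and 534, 571 and 608 in low glucose (-0.67, SE 0.11). E2F2 (-1.67), the repressor E2F8 (-1.29), MYBL2 (-1.07), FOXM1 (-0.82) and the RB relative RBL1 (-0.54) fell, and E2F7 did not pass (-0.37, SE 0.15, adjusted p 0.0872).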

How the data were processed

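RNA-seq of MiaPaCa-2 cells in control and low-glucose medium was analysed from 1 table. Per the labels and the study's methods, paired reads came from strand-specific libraries and were trimmed with Trim Galore. They were mapped to hg38 with STAR 2.7.0e and compared with DESeq2. The study also names the quantifier RSEM among its RNA-seq software, without saying at which step it was used, so the gene counter is not certain. The strand setting and annotation of the counting are not given in the sources used here. The values deposited by the authors are a signal, namely read counts per gene after division by the library's size factor: 100% were whole multiples of 1 read (tolerance 0.001 reads), and the factors matched median-of-ratios factors over 17906 genes. The labels tie 2 columns to low-glucose replicates 1 and 2. The other 4 columns were placed in a group by the 2 runs of 3 in the column names, and libraries are named by depth. The 25 mM of the control comes from the design text.

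Values were tested as log2(value + 1) with limma 3.58.1 (lmFit, eBayes with trend, two-sided) in R 4.3.3, over the 21101 genes whose mean reached 1. Alternatives used edgeR 4.0.16 and DESeq2 1.42.0 on recovered reads. The limma, edgeR and DESeq2 tests were also run on simulated counts with the same spread setting for every gene. The simulation held no trend with transcript length, so it does not cover that feature of the controls. Symbols, exons and starts came from Gencode v44, which held 99.4% of the identifiers. Named outside the 43 genes are at most the 2 largest called rises and 2 largest called falls per list, neighbours, 6 regulators (E2F1, E2F7, E2F8, RBL1, MYBL2 and FOXM1) and cell type markers. Other genes overlapping a member, TOP3A, TP53I3 and CDKN1A were added after their values were seen. Some genes of these lists are not reported here and were left out of the list counts. The members and lists were chosen with earlier results of these data known. Python 3.11.15 with pandas 2.3.3, numpy 2.4.6, scipy 1.17.1 and matplotlib 3.10.9 made the tables and plots.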

Additional observations from a re-analysis of the deposited data

How the results depend on the processing

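The calls were recomputed under 10 alternatives chosen at the start and 6 fits that left out 1 library each, and with removal of a length trend (loess, span 0.3, genes with a mean of at least 10), which was added after seeing the data. The count of members lower was 20 to 29 and stayed within 1.5 times of 27 throughout. Without a mean-variance trend 4090 genes were called (2099 higher and 1991 lower), and 1 member was higher. When called genes also had to change by 0.5 or more on the log2 scale, 3883 genes were called, and 1 member was higher. The members' median was -0.36 with scaling by library size and -0.41 with quantile normalization. Leaving out 1 library gave 4298 to 7173 genes called, 23 to 32 members called, 1 to 3 members higher, 21 to 29 members lower and a median of -0.48 to -0.42. The fewest genes were called without low-glucose replicate 1 (4298). Members called higher numbered 3 without the middle control, and 1 without replicate 2 or without the third low-glucose library.

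The direction of 3 genes that were not called turned: RAD51B, which ranged from -0.13 (without the deepest control) to 0.15 (without the middle control) when 1 library was left out, to -0.19 with quantile normalization and -0.10 with the length trend removed, FANCF to -0.039 with quantile normalization, and WRN to 0.0091 with scaling by library size. DESeq2 called 5489 genes and 24 members lower, edgeR 6554 and 27. Of the comparisons of single members with an alternative, 671 kept their call, 45 lost it and 8 gained one. No paired analysis was possible because replicate numbers are tied to 2 of the 6 columns. With 3 libraries per condition, members near 50 normalised read counts or below (RAD51B, RAD54B, FANCF, FAAP24) had standard errors of 0.19 to 0.26, against 0.073 for FANCA, which limits what can be called for them.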

Other observations

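Genes induced by p53 and DNA damage, 2 of which are also in the nucleotide excision repair list, gave values in both directions. MiaPaCa-2 is known to carry mutant p53. Of 12 such genes, 4 rose, 1 fell and 7 were not called, with a median of 0.17. The largest rises were those of PHLDA3, which restrains AKT signalling (1.49, SE 0.20), and BBC3, which encodes the apoptosis protein PUMA (1.48, SE 0.17), and ZMAT3, an RNA-binding protein, fell (-0.45). The other rises, named after their values were seen, were those of TP53I3 (0.99, SE 0.094) and CDKN1A, the cell-cycle inhibitor p21 (0.94, SE 0.20). CDKN1A was at 83.0, 49.0 and 76.0 in control and 156, 117 and 123 in low glucose, without overlap. The 8 endoplasmic reticulum stress genes all rose, led by HERPUD1 (3.33) and DDIT3 (2.84).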
